A study of Mus musculus with 30 samples.

Results

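The 6 genes measured here were 4 Id genes (*Id1*, *Id2*, *Id3* and *Id4*) and 2 inhibitory Smads (*Smad6* and *Smad7*). Their RNA was measured in cultured mouse spermatogonial stem cells (SSCs). Id genes are known targets of bone morphogenetic protein (BMP) signalling. The inhibitory Smads block signalling by BMP and transforming growth factor β (TGFβ). The 6 genes were chosen by name, and all were among the 13904 genes of the RNA-seq table. mRNA half-lives were listed for 3 of the 6, *Id1*, *Id2* and *Smad7*, among 5806 transcripts. The SSC lines came from testes of postnatal day 7 mice and were grown on fibroblast feeders with GDNF, FGF2, EGF and LIF. Both carry an allele of *Nanos2*, a germline RNA-binding protein, that encodes an N-terminal fusion to V5, Myc, a protease site, His and EGFP. Line 4 is Nanos2 TAG/+ and line 5 is Nanos2 TAG/TAG, so no line without the tagged allele was compared. RNA-seq was 1 library per line (single-end 50 bp reads from RNA cleared of ribosomal RNA), and SLAM-seq, which follows the loss of 4-thiouridine-labelled RNA, was 12 libraries per line over chases of 0, 30, 60, 120, 540 and 1440 min.

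Each genotype was thus a single line. The labels give QIAzol extraction for the TAG/+ RNA-seq library and Trizol for the TAG/TAG one, and genotype, line and reagent cannot be told apart. Whole reads were recovered from the FPKM values (read number per gene length and library depth). The depths that these values imply were 10908790 reads for the TAG/+ library and 11738620 for the TAG/TAG library. Whether these equal the reads counted or include a scaling between libraries is not known. With 1 library per line no test between the lines was possible. The 95% intervals given below are exact Poisson or binomial intervals of the recovered reads and cover counting error only, not the spread between cultures. Germline markers were present in both lines. *Zbtb16* was at an FPKM of 107 and 102, *Sall4* at 214 and 192, and *Nanos2* at 27.5 and 23.8 (TAG/+ and TAG/TAG). They come from a list of 14 markers of undifferentiated spermatogonia, of which 7 differed more than 2-fold between the lines. *Pax7*, from the same list, was at 1.04 and 1.21. Markers of differentiating spermatogonia and of feeders were also present, as given below.

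BMP and TGFβ ligands bind pairs of type I and type II receptor kinases, which phosphorylate receptor-regulated Smads that then enter the nucleus with SMAD4. SMAD6 and SMAD7 block this at the receptor and recruit ubiquitin ligases, and their genes are themselves induced by the pathway as feedback. Id genes are classical BMP targets. ID proteins contain a helix-loop-helix but no basic region, so that they bind E proteins and keep them from DNA. In the testis, *Id4* is known as a marker of the stem cell-rich part of the undifferentiated spermatogonia.

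The members fell into 3 abundant transcripts, *Smad7*, *Id3* and *Smad6*, and 3 scarce ones, *Id1*, *Id2* and *Id4*. The differences between the lines were of unequal size. *Id2* and *Id1* were 8.94-fold and 3.42-fold higher in the TAG/TAG line, *Smad6*, *Id3* and *Smad7* were higher by 1.55-, 1.54- and 1.22-fold, and *Id4* was at 0.904 of its TAG/+ level. The counting interval of the fold lay above 1 for 5 of the 6 members, all but *Id4*, and below 1 for 0. It lay above 1 for 34.9% and below 1 for 35.1% of 12529 genes with a mean FPKM of at least 1 and recovered reads, so an interval that excludes 1 was common. More than 2-fold higher were 2 of 6, against 11.7% of the 12546 genes with a mean FPKM of at least 1, and more than 2-fold lower were 0 of 6, against 8.67%. Over those genes the median difference on the log2(FPKM + 0.1) scale was -0.0025, and over the members it was 0.62. In these bulk samples, more cells of a type and more RNA per cell cannot be told apart.

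**Figure D1:**
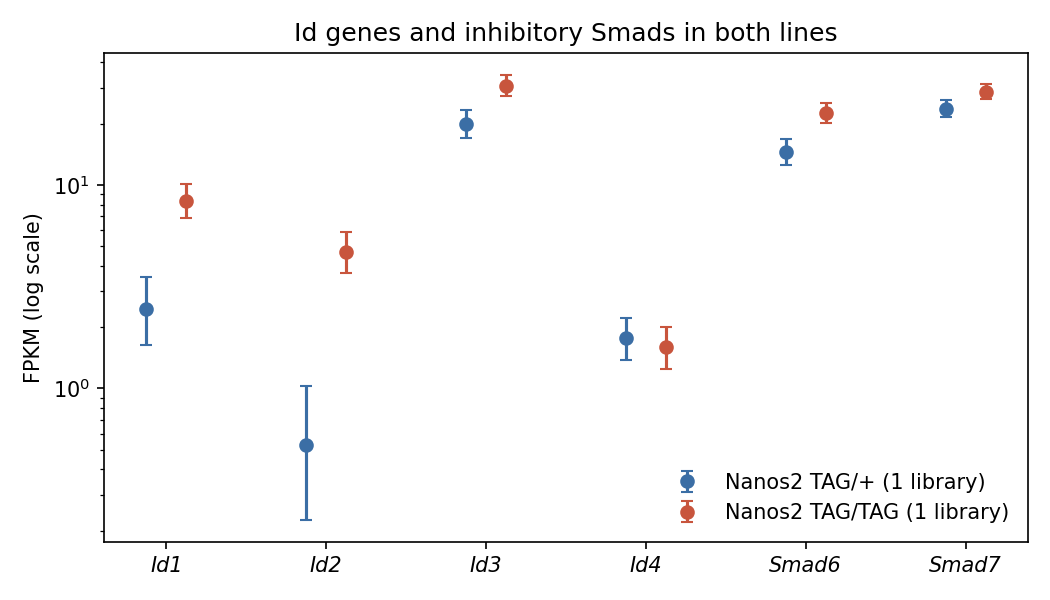
FPKM of each member (log scale) in the 1 library of each line, with bars for the 95% counting interval. The intervals of the lines overlapped for *Id4* and for no other member, and on this scale lay farthest apart for *Id2* and *Id1*. Separation beyond counting error was common: the interval of the fold lay above 1 for 34.9% and below 1 for 35.1% of all genes past the filter.

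*Id1*, the Id gene most often used as a readout of BMP signalling, had an FPKM of 2.45 in the TAG/+ line (28 reads, 95% interval 1.63 to 3.54) and 8.38 in the TAG/TAG line (103 reads, 6.84 to 10.2). The interval of the fold was 2.23 to 5.39. It lies on chromosome 2 from 152736251 to 152737410, plus strand (GRCm38, GENCODE M21). *Id2* had the widest separation, with an FPKM of 0.52 from 8 reads (0.23 to 1.03) and 4.69 from 77 reads (3.70 to 5.86). The fold was therefore imprecise, with an interval of 4.32 to 21.5. *Id2* lies on chromosome 12 from 25093799 to 25097140, minus strand.

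*Id3* was the most abundant Id gene in both lines, at an FPKM of 20.03 from 167 reads in the TAG/+ line and 30.8 from 276 reads in the TAG/TAG line. Its fold had an interval of 1.26 to 1.87, and the gene spans chromosome 4 from 136143497 to 136145755, plus strand. *Id4* had an FPKM of 1.76 (74 reads) and 1.59 (72 reads), so this stem cell marker was the scarcest member in the TAG/TAG line and the next to scarcest in the TAG/+ line. The interval of its fold was 0.644 to 1.27, and a difference within it was not detectable at this depth. *Id4* lies on chromosome 13 from 48261228 to 48266026, plus strand, opposite 2 noncoding genes, *A330033J07Rik* and *Gm49291*, over 1396 and 1364 bases. Neither of these was in the FPKM table, and without a statement that counting used strand, their reads cannot be told apart from those of *Id4*.

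The promoters shown belong to Id genes whose levels differed in unlike ways between the lines, *Id2* most, *Id3* moderately and *Id4* least. They are RefSeq sequences of GRCm38.p6 from 250 bases before to 50 bases after the start that RefSeq annotates, written 5′ to 3′ on the strand of the gene. The capitals mark matches to GGCGCC, a BMP-responsive GC-rich Smad motif, and to CAGAC or its reverse complement GTCTG, a Smad-binding element. Of the 6 members, 4 had a promoter in the table, the other one being *Smad6*. The gene spans given above are from GENCODE. Its outermost start lies 1048 bases upstream of the RefSeq start for *Id2* and 325 bases upstream for *Id3*, so these 2 windows lie inside those spans. For *Id4* the RefSeq start is the one upstream, and the window ends at 48261165, before the GENCODE span begins at 48261228.
*Id2*, chr12:25096043-25096342, minus strand: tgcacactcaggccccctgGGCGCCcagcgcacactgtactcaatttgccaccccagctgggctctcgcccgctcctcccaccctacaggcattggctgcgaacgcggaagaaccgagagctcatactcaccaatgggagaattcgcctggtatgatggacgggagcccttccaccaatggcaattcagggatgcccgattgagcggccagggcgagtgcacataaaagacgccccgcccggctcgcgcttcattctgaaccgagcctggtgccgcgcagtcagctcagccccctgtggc
*Id3*, chr4:136143572-136143871, plus strand: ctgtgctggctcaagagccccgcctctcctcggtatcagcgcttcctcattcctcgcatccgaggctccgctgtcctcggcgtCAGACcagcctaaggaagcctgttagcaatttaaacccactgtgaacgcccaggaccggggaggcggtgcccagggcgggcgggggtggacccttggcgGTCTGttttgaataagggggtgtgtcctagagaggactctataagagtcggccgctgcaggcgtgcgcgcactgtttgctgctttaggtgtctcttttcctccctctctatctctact
*Id4*, chr13:48260866-48261165, plus strand: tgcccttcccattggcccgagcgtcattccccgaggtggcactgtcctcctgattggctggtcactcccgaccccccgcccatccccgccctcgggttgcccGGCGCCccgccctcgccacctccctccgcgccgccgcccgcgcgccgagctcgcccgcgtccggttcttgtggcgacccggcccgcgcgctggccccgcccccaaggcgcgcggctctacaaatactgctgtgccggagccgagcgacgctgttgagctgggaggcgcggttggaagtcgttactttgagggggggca

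*Id2* held 1 GGCGCC match at -231 from the start, and *Id4* held 1 at -148. *Id3* held 0 of these and 2 CAGAC or GTCTG matches, at -167 and -68. The *Smad6* promoter held neither motif. GGCGCC occurred in 11.9% of the 32851 promoters of the same length and CAGAC or GTCTG in 49.6%, both strands counted, and the motifs do not overlap each other in these windows. No promoter sequence was available for *Id1* and *Smad7*, and the relation of either motif to the differences between the lines was not tested.

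*Smad6*, whose product preferentially blocks BMP receptors, had an FPKM of 14.6 from 194 reads in the TAG/+ line and 22.5 from 323 reads in the TAG/TAG line. The interval of its fold was 1.29 to 1.86. *Smad7*, whose product blocks both BMP and TGFβ receptors, had an FPKM of 23.7 from 419 reads and 28.8 from 548 reads, with an interval of 1.07 to 1.38. Both genes were higher in the TAG/TAG line by more than counting error, and less so than *Id1* and *Id2*, whose intervals lay wholly above those of both Smads. *Smad6* lies on chromosome 9 from 63953076 to 64022059, minus strand, and *Smad7* on chromosome 18 from 75367529 to 75395935, plus strand. Their sequences, like those of the Id genes, can be placed in the genome: of the 50-base words of each member's transcripts that occur in the genome, 99.4% for *Id2* and 100% for the other 5 members occur once.

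**Figure D2:**
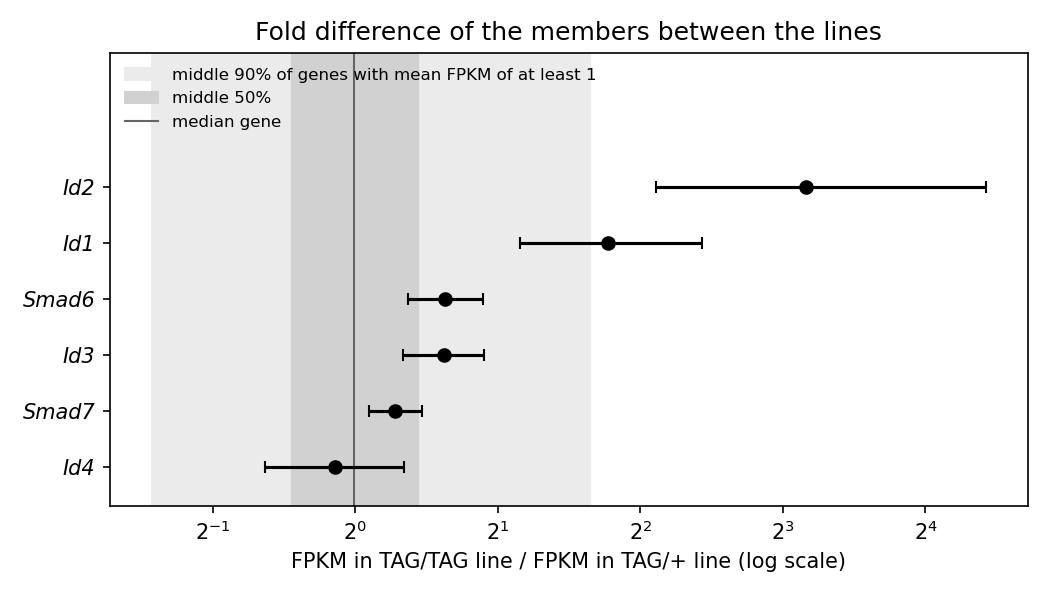
FPKM in the TAG/TAG line divided by FPKM in the TAG/+ line (log scale) for each member, with 95% counting intervals. Shading shows the middle 50% (0.736 to 1.36) and the middle 90% (0.372 to 3.13) of genes. These are genes with a mean FPKM of at least 1 and reads in the TAG/+ line. The folds of *Id1* and *Id2* lay beyond the upper edge of the wider band, but the interval of *Id1* (2.23 to 5.39) crossed that edge.

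In the TAG/+ line the order of levels was *Smad7*, *Id3*, *Smad6*, *Id1*, *Id4*, *Id2*. In the TAG/TAG line it was *Id3*, *Smad7*, *Smad6*, *Id1*, *Id2*, *Id4*. *Smad7* and *Id3* did not differ beyond counting error in either line, with ratios of 1.18 (0.985 to 1.42) for *Smad7* over *Id3* in the first and 1.07 (0.922 to 1.24) for *Id3* over *Smad7* in the second. *Id1* and *Id4* also did not differ beyond it in the TAG/+ line (ratio 1.39, interval 0.867 to 2.18), whereas in the TAG/TAG line *Id1* was 1.79-fold above *Id2* (1.32 to 2.43) and *Id2* 2.94-fold above *Id4* (2.11 to 4.12). *Id2* and *Id4* thus changed places, since *Id4* was 3.36-fold above *Id2* in the TAG/+ line (1.62 to 8.08). By mean FPKM, *Smad7*, *Id3* and *Smad6* stood above 69.0%, 68.3% and 61.6% of all genes, and *Id1*, *Id2* and *Id4* above 36.7%, 23.8% and 16.9%.

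The half-life tables were assigned to the lines by their deposited names, and the labels of the TAG/+ and TAG/TAG samples name theirs CTL and EXP instead. Which line a half-life belongs to, and so the direction of each difference, rests on those names. The half-life of *Smad7* mRNA was 95.6 min in the TAG/+ line and 97.5 min in the TAG/TAG line. That of *Id1* was 133 and 115 min, and that of *Id2* was 153 and 102 min, against medians over all transcripts of 224 and 226 min. All 3 were below the median in both lines, as were 39.8% of the 5806 transcripts. *Smad7* alone, 1 of 3, was among the shortest 10% in both, with 5.80% and 8.13% of transcripts shorter, against 4.58% of all transcripts. *Id1* had 15.5% and 12.4% of transcripts shorter, and *Id2* 21.99% and 8.89%.

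Between the lines, *Smad7* half-lives differed by 1.88 min. *Id1* was shorter by a factor of 1.15 in the TAG/TAG line and *Id2* by 1.501, which put *Id2* barely over the 1.5-fold line used here. More than 1.5-fold shorter was 1 of 3 members, against 10.7% of transcripts, and more than 1.5-fold longer 0 of 3, against 10.0%. The deposited half-lives carry no error, so none of these differences can be set against one. *Id1* and *Id2* had both the higher FPKM and the shorter half-life in the TAG/TAG line, so for these genes level and half-life moved in opposite directions. *Smad7* was slightly higher in both, by 1.22-fold in FPKM and 1.88 min in half-life. How often level and half-life moved in opposite directions over all transcripts was not counted.

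Half-life moved with level across transcripts. Its median was 131 and 133 min among 121 transcripts with a mean FPKM below 2, and 282 and 291 min among 1448 with 64 or more (TAG/+ and TAG/TAG). Set against transcripts within 2-fold of its own mean FPKM, *Id2* had 51.4% shorter in the TAG/+ line and 25.6% in the TAG/TAG line, out of 395, and thus sat at the middle of its peers in the first. *Id1* had 31.8% and 27.6% shorter out of 920. *Smad7*, with 4.42% and 5.98% shorter out of 2106, was again among the shortest 10%, and its peers had medians of 217 and 218 min.

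**Figure D3:**
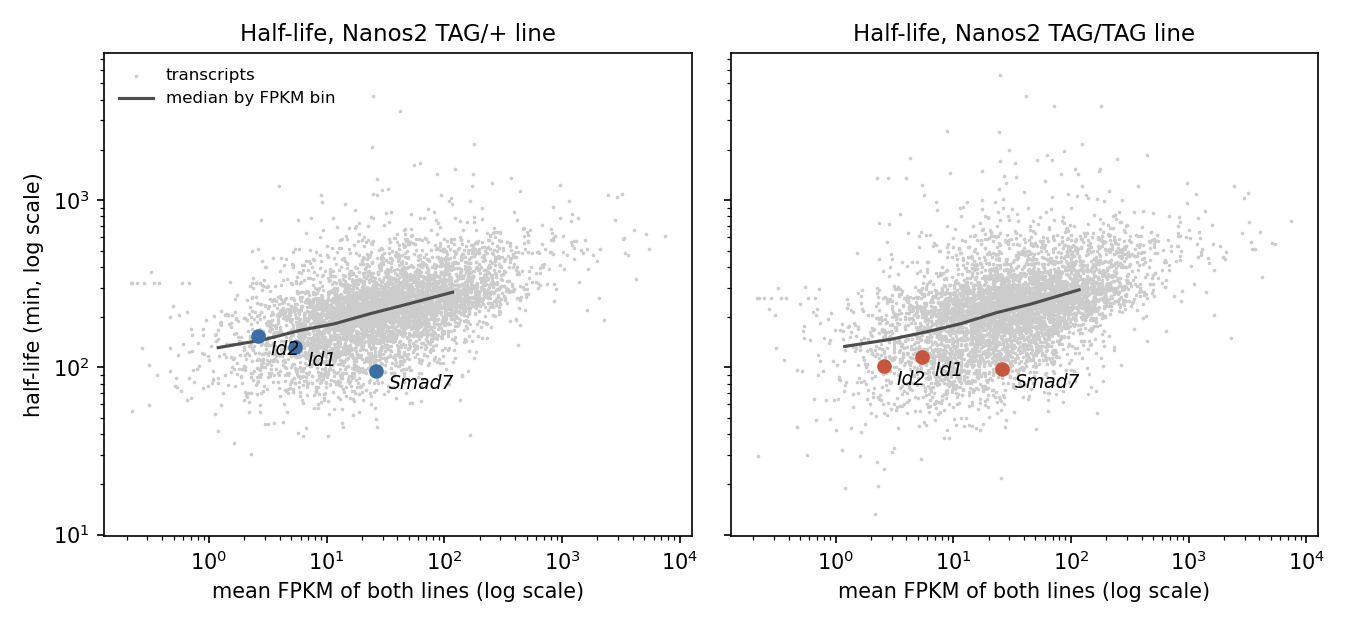
Half-life (min, log scale) against the mean FPKM of both lines (log scale), 1 panel per line, with a line through the median half-life of 7 bins of FPKM. *Smad7* lay well below the median of transcripts of its level in both lines, whereas *Id2* lay on it in the TAG/+ line and below it in the TAG/TAG line.

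No half-life was listed for *Id3* and *Smad6*, which had more reads than *Id1* and *Id2* in both lines, nor for *Id4*. A half-life was listed for 9.08% of genes with a mean FPKM below 5, for 34.9% of those from 5 to 15 and for 56.2% of those from 15 to 50. The listing rule is not given in the sources used here. In each table, 22 transcripts shared a single value, and no member was among them.

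The 3′ UTRs were read for AU-rich and NANOS2-type motifs because half-life and NANOS2 are what the study measured. On the sense strand, ATTTA, the core of AU-rich decay elements, occurred 0 times in *Id1* (397 bases), 3 times in *Id2* (785 bases), 0 times in *Id3* (536 bases), 9 times in *Id4* (3093 bases), 2 times in *Smad6* (448 bases) and 4 times in *Smad7* (1570 bases). Of 3′ UTRs of transcripts with a half-life trimmed to the same length, the share with a match was 42.1% for *Id1*, 46.3% for *Smad6*, 52.6% for *Id3*, 65.5% for *Id2*, 85.7% for *Smad7* and 97.0% for *Id4*. The share with at least as many matches as the member was 18.5% for *Id2*, 17.6% for *Smad6*, 33.4% for *Smad7* and 22.8% for *Id4*. Of the members with a half-life, *Id1* had no match and *Id2* and *Smad7* had several, and the relation of the matches to half-life was not tested.

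The NANOS2 motif, searched as ATGAAAT, its variant ATGAATT, then ATTAAAT, and its variant ATTAATT, occurred 2 times in *Id4*, both times as ATTAAAT, and 0 times in the other 5 members. Of 3′ UTRs of the length of *Id4*, 70.5% held a match. The 3 *Id2* windows around ATTTA (chromosome 12, minus strand) and both *Id4* windows around ATTAAAT (chromosome 13, plus strand) are shown, since these are the matches of the Id gene with a half-life and ATTTA, and of the only member with the NANOS2 motif. They are written 5′ to 3′ with 11 bases on either side (GRCm38, GENCODE M21), and the capitals mark the match.
*Id2*, chr12:25094367-25094371: gtgataccgttATTTAtgagagacttt
*Id2*, chr12:25094118-25094122: gctgtgtatatATTTAtatataaatat
*Id2*, chr12:25093842-25093846: taccagttcaaATTTAtgtagactgta
*Id4*, chr13:48263592-48263598: agatatttttaATTAAATattttttgtaa
*Id4*, chr13:48265519-48265525: aaccactgctgATTAAATgacaagacaac

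A match is a run of letters and not a measured site. Binding data (CRAC, a crosslinking method) from 4 further libraries of the series were not analysed here.

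Upstream of the members, 10 of 22 ligands were in the table and 8 passed the filter of a mean FPKM of at least 1. More than 2-fold higher in the TAG/TAG line were 3 of the 8 and none were lower. *Bmp7* was at an FPKM of 17.98 and 37.0 (TAG/+ and TAG/TAG), *Tgfb1* at 4.67 and 26.9 and *Gdf3* at 0.43 and 3.07, the last from 6 and 46 reads. *Bmp4*, known in the testis as a differentiation signal, was at 2.71 and 3.20. The median difference of the 8 was 0.39 on the log2 scale.

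Of 12 receptors, 10 passed the filter, 2 were more than 2-fold higher and 0 lower, with a median of -0.33. The higher ones, *Acvr1* (1.11 and 2.89) and *Acvrl1* (0.67 and 1.97), encode type I receptors for BMP ligands and had few reads (30 and 84, and 11 and 35). With a pseudocount of 1, 0 of the 10 were over 2-fold. The most abundant type I receptor, *Bmpr1a*, was at 36.8 and 28.8, and the most abundant type II receptor, *Acvr2b*, at 29.2 and 15.4.

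The co-receptors stood apart from the receptors in size, with 3 of 4 genes more than 2-fold higher and a median of 1.42. *Rgma*, a BMP co-receptor, was at 1.11 and 15.1, *Eng*, a co-receptor for TGFβ and BMP9, at 3.35 and 9.48, and *Tgfbr3*, which presents TGFβ2, at 4.10 and 10.8. *Bambi*, a decoy receptor that is itself a BMP target, was at 2.53 and 1.95 and *Rgmb* was not in the table.

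The signal-carrying Smads differed little. None of the 5 that passed was over 2-fold in either direction, with a median of 0.02. *Smad1* and *Smad5*, of the BMP arm, were at 32.1 and 24.9 and at 29.7 and 17.6. *Smad2* and *Smad3*, of the TGFβ arm, were at 59.5 and 68.3 and at 45.4 and 46.1, and *Smad4* at 54.6 and 56.0. *Smad9*, the other BMP Smad, was at 0.22 and 0.33 from 13 and 21 reads. In half-life, *Smad1* and *Smad3* (91.9 and 88.5 min) were below *Smad7* in the TAG/+ line, and at 170 and 213 min above it in the TAG/TAG line.

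Secreted antagonists gave 2 genes past the filter out of 11, *Nbl1* (8.16 and 6.67) and *Fstl3* (6.31 and 6.17), with 0 over 2-fold and a median of -0.16. Among 10 Smad ubiquitin ligases and corepressors, 9 passed and 1 was over 2-fold higher, *Tob1* (7.89 and 18.9), an antiproliferative protein that represses Smad-dependent transcription. The median was 0.11, and the most abundant, *Ski* and *Tgif2*, were at 211 and 185 and at 92.8 and 95.5. *Smurf1* and *Smurf2*, the ligases that SMAD7 brings to receptors, were at 29.9 and 32.3 and at 34.6 and 27.9. *Tob1*, with half-lives of 86.1 and 83.3 min, and *Rnf111*, a ligase that degrades SMAD7, with 77.7 and 74.8 min, were the 2 of 8 with a half-life that were among the shortest 10% in both lines.

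Downstream, *Tcf3* and *Tcf12*, which encode E proteins that Id proteins bind, were more abundant than any Id gene in both lines. *Tcf3* was at 203 and 264, *Tcf12* at 44.4 and 42.7 and *Tcf4* at 4.40 and 6.57, none over 2-fold. The summed FPKM of the 3 was 251 and 313. That of all 6 members was 63.0 and 96.7, but it includes *Smad6* and *Smad7*, which are not Id genes. These are RNA levels, and protein levels were not compared. Of 7 tissue-restricted bHLH factors, 5 were measured and 1 was over 2-fold higher, *Neurog3*, a factor of progenitor spermatogonia, at 0.57 from 7 reads and 8.23 from 108 reads. *Sohlh2* and *Sohlh1*, which drive spermatogonial differentiation, were at 173 and 125 and at 16.9 and 10.4.

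**Figure D4:**
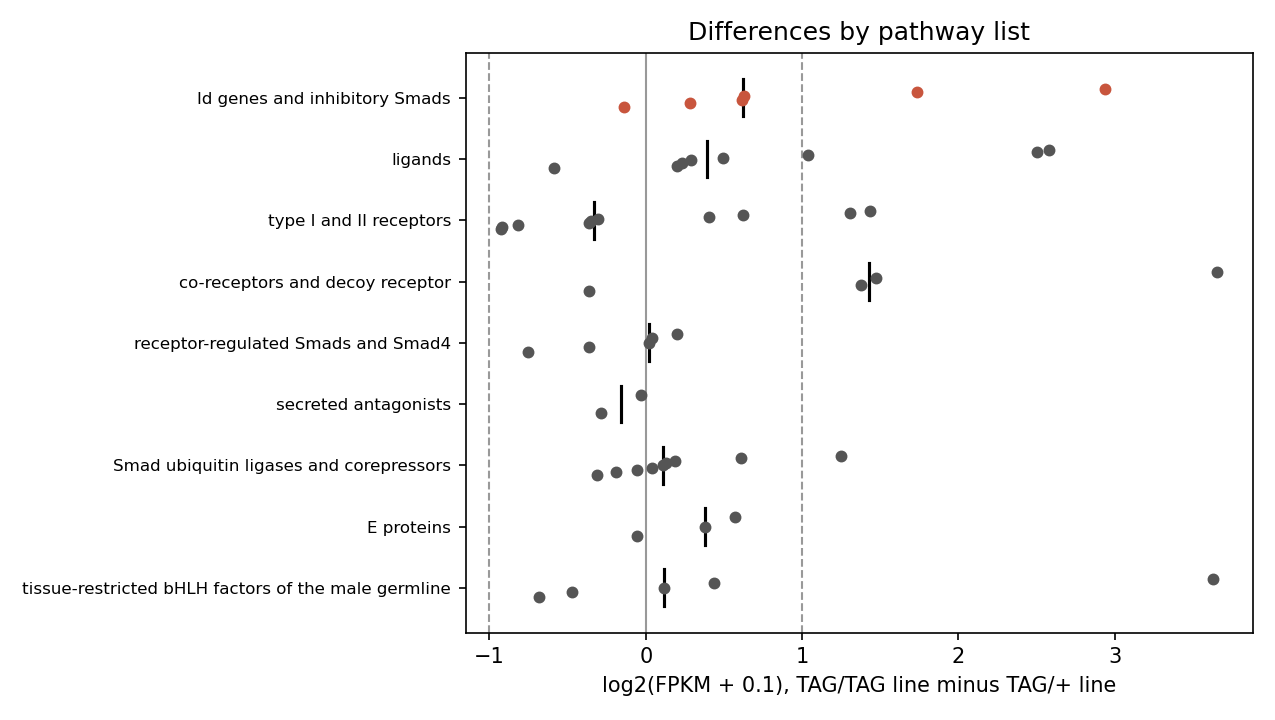
Difference in log2(FPKM + 0.1), TAG/TAG line minus TAG/+ line, of each gene with a mean FPKM of at least 1 in each list, with the median as a black bar and dashed lines at 2-fold. The members reached 2.94 for *Id2*, the co-receptors 3.65 for *Rgma*, and the signal-carrying Smads stayed between -0.75 and 0.20.

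Markers of other cells also differed between the libraries, and Id genes are expressed by fibroblasts and many other cells. The methods of the study give RNA-seq of sorted SSCs, with a scatter gate set to leave out remaining feeders, whereas the labels of both libraries give feeder depletion and name no sort. Of 15 feeder markers, 14 were in the table with a summed FPKM of 424 and 575, 3 of 13 past the filter were more than 2-fold higher (*Pdgfrb* 0.66 and 6.75, *Dcn* 4.44 and 10.2, *Sparc* 73.9 and 158), and *Fn1* was highest at 254 and 280. Of 11 testis somatic and blood markers, 5 were in the table with sums of 14.9 and 35.6, and 3 of the 4 past the filter, *Wt1*, *Gata4* and *Sox9*, were more than 2-fold higher. With a pseudocount of 1, 2 of these were. *Wt1* was at 2.51 and 19.6, *Gata4* at 0.64 and 2.35, *Sox9* at 2.19 and 4.49, *Pecam1* at 9.60 and 7.72, and *Cdh5* was listed at 0 and at 1.37. The part of these cells in the *Id1* and *Id2* differences was not tested.

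Spermatogonial markers differed as well. Among 14 markers of undifferentiated spermatogonia, 7 were more than 2-fold higher in the TAG/TAG line and 0 lower, with sums of 706 and 1176. Of the GDNF receptor and the transcription factors that GDNF is known to induce, *Bcl6b* was at 23.1 and 225, *Etv5* at 45.98 and 178, *Ret* at 73.2 and 181, and *Lhx1* at 11.6 and 26.1. *T* was at 4.81 and 21.2 and *Eomes* at 0.27 and 5.95, and *Neurog3* is given above. Among 6 markers of differentiating spermatogonia, 0 were higher and 1 was lower, the meiotic cohesin *Rec8* at 267 and 133, with sums of 507 and 310. *Rec8* was at the 2-fold limit, and with a pseudocount of 1 the count was 0. *Kit* was at 38.5 and 30.7, *Stra8* at 8.21 and 6.18 and *Dmrtb1* at 3.67 and 4.86. Others of the 14 were lower in the TAG/TAG line by less than 2-fold. These were *Pou5f1* (50.5 and 35.9), *Nanos3* (90.8 and 65.4), and *Nanos2*, *Sall4* and *Zbtb16*, given above. The *Id4* values of 1.76 and 1.59 thus stood beside markers that were higher and markers that were slightly lower. The relation of *Id4* to these markers was not tested.

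The genes nearest to each member by distance over log2 FPKM in both lines, and over log2 half-life in both lines where listed, were *Eps8* and *F2r* for *Id1*, *Fahd1* and *Cpeb3* for *Id2*, and *Klf16* and *Zfp553* for *Smad7*, out of 5144 genes over 4 values. The distances were 0.23 and 0.36 for *Id1*, 0.89 and 0.95 for *Id2*, and 0.29 and 0.34 for *Smad7*. *Id2* thus had no near neighbour, and *Fahd1* had an FPKM of 0.50 and 2.72. For the 3 members without a half-life the comparison was over 2 values in 13548 genes, and gave *Osbpl3* and *Nle1* for *Id3*, *Accs* and *Gpx7* for *Id4*, and *Gm13340* and *Btd* for *Smad6*, all within 0.042.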

How the data were processed

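RNA-seq values are FPKM that the authors deposited for 13904 genes, 1 column per line. The processing notes that the authors deposited name kallisto and DESeq2, with no version or role given. The columns were assigned to genotypes by their names and the order in the table's name, since no label spells them out. Half-lives in minutes are other values that the authors deposited, fitted with SlamDunk conversion rates and a first-order decay in R after collapse of technical replicates, 1 value per transcript and line, with no error or depth. The half-life tables were assigned to lines by their names, which differ from those in the labels. CRAC libraries were not analysed here.

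FPKM times the mean transcript length of a gene (GENCODE M21) was divided by its smallest step in each library, which gave whole reads (within 0.02) for 100% of 13884 genes. The recovery was tested on simulated data. Called differences were over 2-fold in log2(FPKM + 0.1) with a mean FPKM of at least 1, or over 1.5-fold in half-life. No test between lines was possible. The named genes were the 6 members, the 2 highest of each list, every gene of a list of 6 or fewer, each gene past 2-fold, and the 2 nearest genes of each member. Further genes named among the receptors, ligands, ligases and markers were chosen after their values were seen. The members and lists were chosen with earlier results of these data known. 3′ UTRs were those of the APPRIS principal or longest transcript. Alternatives were a pseudocount of 1, other filters, median scaling, expression-matched ranks and merged exon lengths. Python 3.11.15, numpy 2.4.6, pandas 2.3.3 and scipy 1.17.1 were used.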

Additional observations from a re-analysis of the deposited data

How the results depend on the processing

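With a mean FPKM of at least 5 in place of 1, 1 member was more than 2-fold higher in the TAG/TAG line, since *Id2* no longer passed, and 6.77% of all genes were, in place of 11.7%. With a pseudocount of 1, 2 members were, as before. The count was also 2 with no filter or with median scaling, but these settings put it to little trial. All 6 members already passed the filter, and the median fold was 0.993. The *Id2* difference fell to 1.90 on the log2 scale with a pseudocount of 1, below its counting interval. Division by the median ratio of half-lives, 1.03, left 1 half-life over 1.5-fold shorter. Such a division lowers every ratio of TAG/TAG over TAG/+, so *Id2* could only move further past the line. The *Smad7* log2 ratio turned from 0.03 to -0.0090. With merged exon lengths 10 of 12 places in the orders were kept, and *Id3* and *Smad7* exchanged places in the TAG/+ line. Of 39 alternative values, 30 stayed within their spread or their count, 7 moved and 2 fell. The 30 include values under settings that could not, or could hardly, change them. The *Smad7* half-life ratio, which was not past 1.5-fold, was the value that changed sign. Of the 7, 5 were ranks among transcripts of like FPKM. Depth limits *Id2* most, at 8 reads. No paired analysis was possible because each line had 1 RNA-seq library and 1 table of half-lives. No library could be left out for the same reason.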
